A study of Rattus norvegicus with 9 samples.

Results

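Adenosine is a breakdown product of ATP and a modulator of synaptic transmission. It is formed outside cells when ectonucleotidases strip the phosphates from released ATP, it crosses membranes through nucleoside transporters, and it is removed inside cells by phosphorylation to AMP or deamination to inosine. Its receptors are coupled to G proteins and act in opposite directions on cyclic AMP, so that in the forebrain the inhibitory receptor encoded by Adora1 damps transmitter release while the receptors encoded by Adora2a and Adora2b stimulate adenylyl cyclase. The 7 genes described here were chosen by name, and the count table held all 7 among its 37209 genes: the receptors Adora1, Adora2a and Adora2b, the AMP-hydrolysing ectoenzyme Nt5e, the transporter Slc29a1, adenosine kinase (Adk) and adenosine deaminase (Ada). All 7 were among the 16837 genes that passed the filter on low counts.

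RNA depleted of rRNA had been sequenced from the prefrontal cortex, labelled frontal cortex, of 9 male Wistar rats aged 14 weeks, 3 in each of 3 groups. Control litters had been left undisturbed. Rats of the MS group (maternal separation) had spent 4 h without the dam on each of postnatal days 1 to 21. Rats of the EA group (labelled MS+EA) had been separated in the same way and then received electroacupuncture at the Baihui and Yintang points every other day from day 61 to 81. All 3 groups were under isoflurane at the sessions and again when tissue was taken. The study sequenced no rats with sham treatment, so the effect of the current cannot be told apart from that of needling. Which litters the rats came from was not stated, so p-values measure the spread between these rats.

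Expression is given in CPM, the counts of a gene scaled by the library size and edgeR's TMM factor. Total counts per rat were 16153292 to 19007907 in the Control group, 16106381 to 17243320 in the MS group and 12479905 to 14913736 in the EA group, so the EA libraries were the shallowest. The tissue had the markers of cortical excitatory neurons in all rats, with Slc17a7 between 1225 and 1635 CPM and Camk2a between 1664 and 2541 CPM. A gene was called at an adjusted p under 0.05 (edgeR's quasi-likelihood test with Benjamini-Hochberg adjustment over all tested genes) together with a fold change over 1.5 in either direction.

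None of the 7 genes was called in any of the 3 comparisons. Between MS and Control rats 0 of 7 were called, where 0.0238% of all tested genes were, and 0 of 7 had an unadjusted p under 0.05, against 10.6% of tested genes. Between EA and MS rats the numbers were 0 of 7 called (0.0178% of tested genes) and 0 of 7 at an unadjusted p under 0.05 (12.4%). Between EA and Control rats 0 of 7 were called (1.37%), and Ada alone had an unadjusted p under 0.05 (22.5%). DESeq2 called 0 of the 7 in each comparison, gave no adjusted p for Ada in any of them nor for Adora2a and Nt5e between EA and MS rats, and had 1, 0 and 1 of the 7 at an unadjusted p under 0.05, in the order above, which was Ada both times. Each group enters 2 of the 3 comparisons, so the values of different comparisons share rats.

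**Figure D1:**
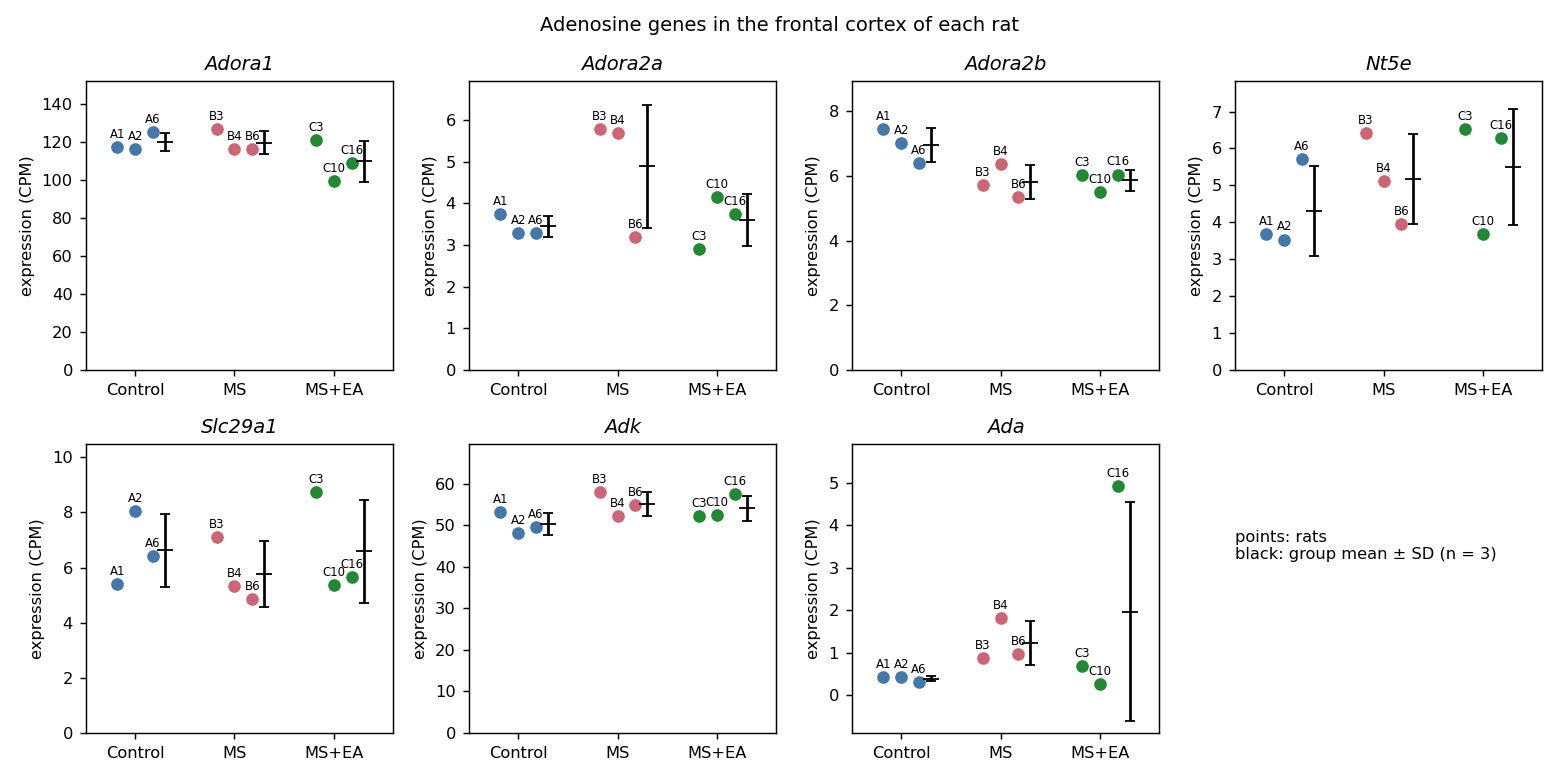
Expression in CPM (vertical axes, each from 0 or below) of the 7 genes in each of the 9 rats, by group; points are rats with their names, and black bars are group means with SD (n = 3). Adora1 and Adk lie in narrow bands, Adora2a is higher in the MS rats B3 and B4, all MS and EA rats lie below the Control rats for Adora2b, and the EA rat C16 stands apart for Ada at 4.93 CPM.

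Adora1, the inhibitory receptor of cortical neurons, had by far the most reads of the 7 genes, between 1372 and 2200 per rat. Its expression in the Control rats A1, A2 and A6 was 118, 117 and 125 CPM. The MS animals (B3, B4, B6) had 127, 116 and 117 CPM, which spans the Control values. The EA rats C3, C10 and C16 had 121, 99.8 and 109 CPM, so that C10 and C16 lay below every other rat and C3 among them. The group means were 120 ± 4.73 CPM (SD, n = 3) in Control, 120 ± 6.08 CPM (SD, n = 3) in MS and 110 ± 10.8 CPM (SD, n = 3) in the EA group. For MS against Control the log2 fold change was -0.00029, with a 95% interval from -0.17 to 0.17 (edgeR adjusted p = 0.999). A change of 1.5-fold lay outside this interval. For EA against MS it was -0.12, with an interval from -0.29 to 0.046 (edgeR adjusted p = 0.543). For EA against Control it was also -0.12 (interval -0.29 to 0.045, edgeR adjusted p = 0.374). Leaving out single rats, the difference between EA and Control rats ranged from -0.20 (without C3) to -0.059 (without C10).

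Of 4 markers of excitatory neurons, 2 were lower in EA than in Control rats at an unadjusted p under 0.05. The other two had no such p, with log2 fold changes of -0.010 for Tbr1 and 0.29 for Neurod6. Slc17a7, the vesicular glutamate transporter of cortical projection neurons, had 1592 ± 53.3 CPM (SD, n = 3) in Control and 1289 ± 57.6 CPM (SD, n = 3) in the EA group (log2 fold change -0.30, edgeR adjusted p = 0.0207). Camk2a, a kinase of excitatory synapses, had a log2 fold change of -0.36 in the same comparison (edgeR adjusted p = 0.0387). Both passed the threshold on p and neither that on fold change. The summed expression of the 4 was 3680 to 4332 CPM in Control and 3162 to 3296 CPM in EA rats. Slc17a7 and Camk2a made up most of this sum, so it mainly repeats their values. The part of these markers in the value of Adora1 was not tested. In bulk tissue, fewer cells of a type and less RNA per cell cannot be told apart.

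Adora2a encodes a receptor that stimulates cyclic AMP and is best known for its density on striatal neurons of the indirect pathway. Its reads were few, between 42 and 99 per rat. The Control rats had 3.75, 3.29 and 3.30 CPM. In the MS rats B3 and B4 its expression was 5.77 and 5.69 CPM, above all other rats, while B6 had 3.19 CPM, below all 3 Control rats. The EA rats C3, C10 and C16 had 2.91, 4.15 and 3.74 CPM and overlapped both other groups. The means were 3.44 ± 0.261 CPM (SD, n = 3), 4.88 ± 1.47 CPM (SD, n = 3) and 3.60 ± 0.631 CPM (SD, n = 3) in Control, MS and EA rats. Adora2a had a log2 fold change of 0.50 for MS against Control, with an interval from -0.041 to 1.04 (edgeR adjusted p = 0.501), and of -0.44 for EA against MS, with an interval from -0.99 to 0.11 (edgeR adjusted p = 0.498). For EA against Control it was 0.062 (interval -0.50 to 0.62, edgeR adjusted p = 0.919). The value for MS against Control was 0.73 without B6 (edgeR adjusted p = 0.362), 0.36 without B3 and 0.38 without B4. That for EA against MS was -0.67 without B6 (edgeR adjusted p = 0.389), -0.30 without B3, -0.31 without B4 and -0.30 without C3.

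Of the listed striatal markers, each was highest in a rat other than B3 and B4. Drd2, the dopamine receptor of the same striatal neurons, had 2.97 CPM in B3 and 3.50 CPM in B4, where Adora2a was highest, against 4.39 CPM in B6 and 3.32 to 6.10 CPM in the Control rats. Gpr6, another gene of indirect pathway neurons, was at 0.318 to 0.902 CPM in all 9 rats. The sum of 8 striatal markers was 213 to 233 CPM in Control, 216 to 229 CPM in MS and 211 to 264 CPM in EA rats, with 0 markers absent from any group. Most of this sum came from Pde10a (66.9 to 94.1 CPM) and Ppp1r1b (63.8 to 97.2 CPM). The part of striatal cells in the values of Adora2a was not tested. The ratio of Adora1 to Adora2a, whose reads fall on transcripts of different length, uses the same Adora2a counts and adds no separate evidence. It was 22.0 in B3, 20.4 in B4 and 36.6 in B6. The Control rats had 31.4 to 38.1 and the EA rats 24.0 to 41.6.

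Adora2b, the receptor of low affinity for adenosine, had the smallest spread within groups of the 5 genes with few reads, and its mean was lower in both separated groups than in Control rats. The Control rats had 7.44, 7.01 and 6.40 CPM, from 139, 115 and 103 reads. The MS animals (B3, B4, B6) had 5.71, 6.38 and 5.35 CPM, and the EA rats C3, C10 and C16 had 6.04, 5.49 and 6.04 CPM. All 6 separated rats thus lay below the 3 Control rats, with B4 and A6 almost touching. The means were 6.95 ± 0.520 CPM (SD, n = 3) in Control, 5.82 ± 0.521 CPM (SD, n = 3) in MS and 5.86 ± 0.314 CPM (SD, n = 3) in the EA group. Relative to Control rats the log2 fold change was -0.26 in MS (interval -0.59 to 0.076, edgeR adjusted p = 0.578) and -0.25 in EA rats (interval -0.59 to 0.090, edgeR adjusted p = 0.374), which did not pass the test. Between EA and MS rats it was 0.010, with an interval from -0.33 to 0.35 (edgeR adjusted p = 0.988). With each rat left out, the former values stayed between -0.33 and -0.20 and between -0.30 and -0.20.

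Groups that do not overlap were common among all genes, and the counts are read against that background. Between MS and Control rats, the groups did not overlap for 2 of the 7 genes, Adora2b and Ada, and for 17.6% of all tested genes. Ada had 5 to 8 reads in the Control rats and passed the filter on low counts only through separated rats. Its separation from Control rats is therefore not independent of that filter. Between EA and Control rats the groups did not overlap for 1 of the 7, Adora2b, and for 25.9% of tested genes. Between EA and MS rats the groups overlapped for each of the 7, and 17.9% of tested genes had groups that did not.

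Nt5e hydrolyses extracellular AMP to adenosine and is the last step of its formation outside cells. The Control rats A1, A2 and A6 had 3.69, 3.54 and 5.72 CPM. The MS animals (B3, B4, B6) had 6.41, 5.13 and 3.97 CPM, and the EA rats C3, C10 and C16 had 6.52, 3.69 and 6.28 CPM. Each group held rats on both sides of 5 CPM, and the groups overlapped in all comparisons. The means were 4.32 ± 1.22, 5.17 ± 1.22 and 5.50 ± 1.57 CPM (SD, n = 3 each) in the Control, MS and EA group. Nt5e had log2 fold changes of 0.26 for MS and 0.35 for EA against Control, with intervals from -0.33 to 0.86 and from -0.25 to 0.94 (edgeR adjusted p = 0.777 and 0.495). For EA against MS it was 0.083, with an interval from -0.51 to 0.67 (edgeR adjusted p = 0.928). These intervals include a change of 1.5-fold upwards. Leaving out single rats moved the value for MS against Control between 0.076 (without B3) and 0.52 (without A6), and that for EA against Control between 0.21 (without C3) and 0.61 (without A6). The current RefSeq annotation of the rat places Nt5e over part of Snx14, which had 320 to 513 reads per rat, and with the strand setting of the counting not stated, reads of their shared part cannot be told apart.

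Slc29a1 encodes the equilibrative transporter that lets adenosine pass in either direction down its gradient. Its expression was 5.41, 8.05 and 6.40 CPM in the Control rats A1, A2 and A6. It was 7.11, 5.32 and 4.87 CPM in B3, B4 and B6 of the MS group, and 8.74, 5.36 and 5.64 CPM in the EA rats C3, C10 and C16. The highest rats, C3 and A2, came from different groups, and the groups overlapped throughout. The means were 6.62 ± 1.33, 5.77 ± 1.19 and 6.58 ± 1.88 CPM (SD, n = 3 each) in Control, MS and EA rats. Slc29a1 had a log2 fold change of -0.20 for MS against Control (interval -0.70 to 0.31, edgeR adjusted p = 0.814), 0.19 for EA against MS (interval -0.32 to 0.70, edgeR adjusted p = 0.779) and -0.0043 for EA against Control (interval -0.51 to 0.50, edgeR adjusted p = 0.994). The value for MS against Control lay between -0.38 (without B3) and -0.035 (without A2) when a rat was left out.

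Adk phosphorylates adenosine to AMP. It is the main route of adenosine removal in the adult brain, where it is found chiefly in astrocytes. Its 724 to 995 reads per rat made it one of the better measured genes here. The Control rats A1, A2 and A6 had 53.1, 48.2 and 49.6 CPM, the MS animals (B3, B4, B6) 58.0, 52.3 and 55.0 CPM, and the EA rats C3, C10 and C16 52.2, 52.5 and 57.6 CPM. The separated rats overlapped the Control rats only through A1, which was above B4, C3 and C10. The means were 50.3 ± 2.56, 55.1 ± 2.87 and 54.1 ± 3.01 CPM (SD, n = 3 each) in Control, MS and EA rats. Adk had a log2 fold change of 0.13 for MS (interval -0.038 to 0.30, edgeR adjusted p = 0.578) and of 0.10 for EA against Control (interval -0.066 to 0.27, edgeR adjusted p = 0.473). Between EA and MS rats it was -0.027 (interval -0.20 to 0.14, edgeR adjusted p = 0.916). A change of 1.5-fold lay outside all 3 intervals. The summed expression of 6 astrocyte markers was 3733 to 4350 CPM in Control, 4026 to 4345 CPM in MS and 3557 to 4329 CPM in EA rats, and these ranges overlapped. Adk overlaps Ap3m1 in the current annotation, which had 390 to 586 reads per rat.

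**Figure D2:**
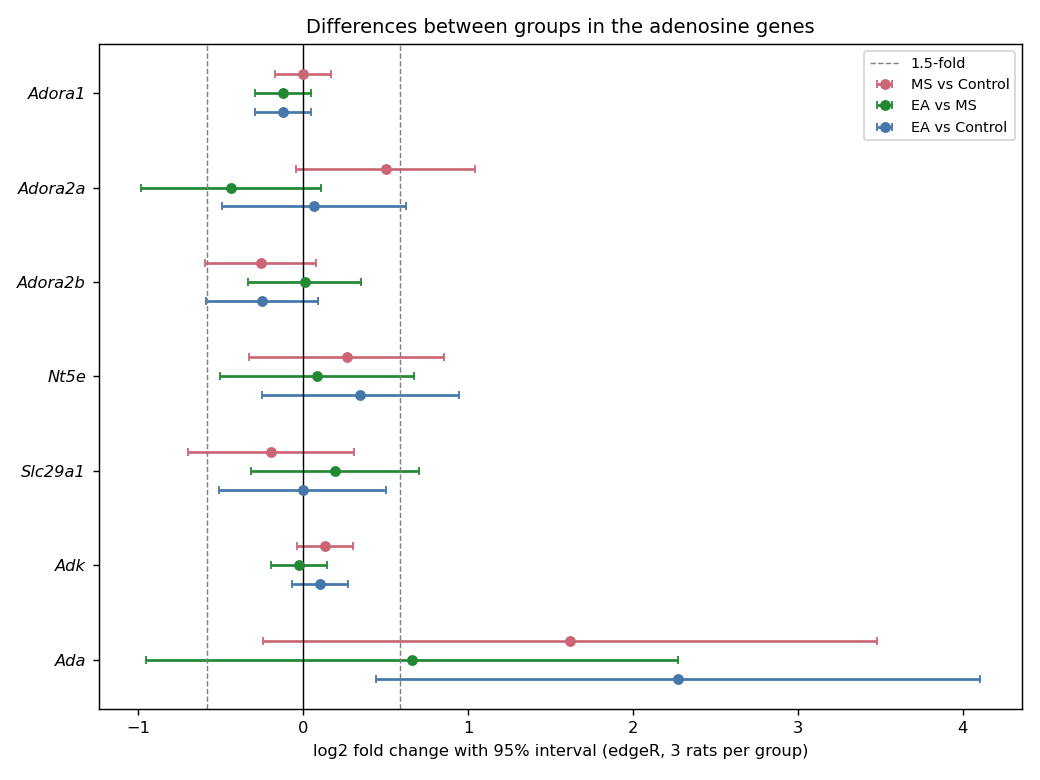
The log2 fold change (horizontal axis) of each of the 7 genes in the 3 comparisons, as points with 95% intervals from edgeR's fit to 9 rats; dashed lines mark 1.5-fold. The intervals of Adora1 and Adk lie within the dashed lines in all comparisons, and the widest are those of Ada, of which the one for EA against Control runs from 0.44 to 4.11.

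Ada deaminates adenosine to inosine and in the brain is far less abundant than in lymphoid tissue. It had the fewest reads and the largest differences of the 7 genes. All Control rats had fewer than 10 reads, so Ada was tested only because separated rats had more. Low Control values were thus partly a condition of its being tested. The Control rats A1, A2 and A6 had 8, 7 and 5 reads, or 0.428, 0.427 and 0.311 CPM. The MS animals (B3, B4, B6) had 15, 29 and 16 reads, or 0.875, 1.81 and 0.962 CPM, all above the Control rats. The EA rats C3, C10 and C16 had 10, 4 and 62 reads, or 0.694, 0.268 and 4.93 CPM. Thus C10 was the lowest and C16 the highest of all rats, and C16 alone held 39.7% of the reads counted on the gene. The means were 0.389 ± 0.0673 CPM (SD, n = 3) in Control, 1.22 ± 0.519 CPM (SD, n = 3) in MS and 1.96 ± 2.58 CPM (SD, n = 3) in the EA group.

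For MS against Control, the log2 fold change of Ada was 1.62, with an interval from -0.25 to 3.48 (edgeR adjusted p = 0.527). It ranged from 1.22 without B4 to 1.81 without B3. The main fit also included the EA rats. Fitted to only the 6 rats compared, the value was 1.62 (edgeR unadjusted p = 0.0042, adjusted p = 0.157). With all genes of at least 1 count it was 1.61 (edgeR unadjusted p = 0.0139, adjusted p = 0.315). Other scaling of the libraries gave edgeR unadjusted p = 0.0834 and 0.0873, and bias-adjusted deviances gave 0.129. Ada was not called in any of these settings. For EA against Control the log2 fold change of Ada was 2.28, with an interval from 0.44 to 4.11 (unadjusted p = 0.0189 and adjusted p = 0.133 with edgeR's quasi-likelihood test). This value rested on C16: without that rat it was 0.29 (edgeR adjusted p = 0.847). For EA against MS the log2 fold change was 0.66 (interval -0.96 to 2.27, edgeR adjusted p = 0.754), and without C16 it turned to -1.33 (edgeR adjusted p = 0.414). When all genes with at least 1 count were tested, Ada was called between EA and Control rats (log2 fold change 2.27, edgeR adjusted p = 0.0184). The same filter without C16, a setting added after the counts of Ada had been seen, gave 0.29 (edgeR adjusted p = 0.914).

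**Figure D3:**
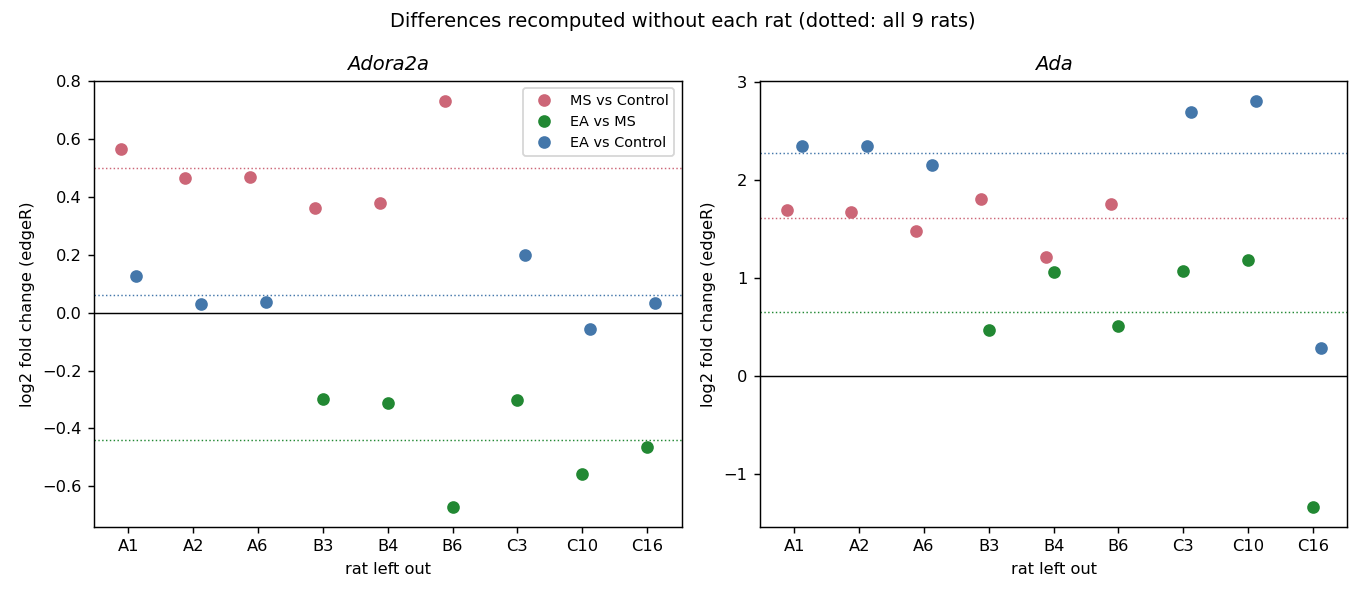
The log2 fold change (vertical axes) of Adora2a and Ada in the 3 comparisons when the rat named on the horizontal axis is left out; dotted lines give the values with all 9 rats. Adora2a keeps its sign in MS against Control and in EA against MS, whereas leaving out C16 moves Ada in EA against MS from 0.66 to -1.33.

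Markers of other cell types differed between these same rats. The summed expression of 5 genes of meningeal fibroblasts was 17.7 to 24.4 CPM in Control, 19.0 to 119 CPM in MS and 18.9 to 68.6 CPM in EA rats. Between MS and Control rats 4 of the 5 had an unadjusted p under 0.05 (0 called), and between EA and Control rats 3 of the 5. The highest sums were in B4 (119 CPM) and C16 (68.6 CPM), which were also the highest rats for Ada, and the sum in C3 was 49.5 CPM. The 3 were Col1a1, Col1a2 and Ogn, with log2 fold changes of 1.94, 1.69 and 3.98 (edgeR adjusted p = 0.114, 0.213 and 0.0674). Most of the sum in B4 and C16 was Col1a1, at 72.8 and 45.5 CPM. Lum had 5.25 CPM in C16 and 1.83 to 2.36 CPM in the Control rats. Dcn did not follow, with a mean of 10.3 CPM in both Control and EA rats. Its 12.9 CPM in C16 lay below the 14.7 CPM of A1. Ogn had 5 reads in C16 and 21 in C3. The sum of the 6 astrocyte markers in C16, 4329 CPM, lay below those in A1 (4350 CPM) and B4 (4345 CPM). Of its single markers, Gfap was highest in C16, at 782 CPM against 280 to 508 CPM in the other rats. Aqp4 was also highest there, at 709 CPM against 535 to 656 CPM. The other markers of the list were not highest in C16. The 3 red blood cell markers summed to 67.0 to 138 CPM in Control, 155 to 218 CPM in MS and 146 to 214 CPM in EA rats. Each separated rat was thus above each Control rat, including C10 with 159 CPM, the lowest rat for Ada. The choroid plexus markers summed to 2.05 to 2.81 CPM in the Control rats, to 2.04, 17.9 and 6.01 CPM in B3, B4 and B6 and to 5.27, 1.41 and 3.90 CPM in C3, C10 and C16, with 1 of 5 markers at 0 in each group. By this sum C16 lay below B6 and C3, which had less Ada. The part of these cells in the values of Ada was not tested.

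Other markers with an unadjusted p under 0.05 between EA and Control rats were spread over several cell types. Slc32a1 of inhibitory neurons had a log2 fold change of -0.22, C1qa of microglia -0.36, Tek of endothelial cells 0.30 and Gpr17 of oligodendrocyte precursors -0.34. Kcnj13 of the choroid plexus stood at 2.79, and the haemoglobin genes Hbb and Hba1 at 0.90 and 0.69. The edgeR adjusted p of these 7 markers lay between 0.0728 and 0.183. Not all of them stand for their lists. Slc32a1 was the only 1 of 6 inhibitory neuron markers with such a p, and the list's median log2 fold change was 0.021. Likewise 1 of 6 endothelial markers had such a p, at a list median of 0.052. In the remaining lists the median had the sign of the named markers. For microglia 1 of 6 had such a p at a median of -0.20, and for oligodendrocyte precursors 1 of 3 at -0.16. For red blood cells it was 2 of 3 at 0.69, and for the choroid plexus 1 of 3 tested markers at 0.50.

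How far the rats of a group differed was not the same for the 7 genes. The coefficient of variation of CPM within groups was 6.56% for Adora1 and 5.30% for Adk. It was 23.5% for Adora2a, 27.0% for Nt5e and 23.7% for Slc29a1, against 12.6%, 11.3% and 9.99% from counting error alone. For Adora2b it was 7.45%, below the 10.1% that counting gives, and 3.06% of the 2126 genes with a mean count within 1.5 times of it varied as little. For Ada it was 128%, where counting gives 24.0%, and 99.4% of the 1752 genes of like count varied less or as much. This pooled value for Ada reflects mainly the EA group with C16. By group it was 17.3% in Control, 42.6% in MS and 131% in EA rats. Adora2b and Slc29a1 thus differed in spread at nearly equal mean counts of 99 and 100 per rat.

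**Figure D4:**
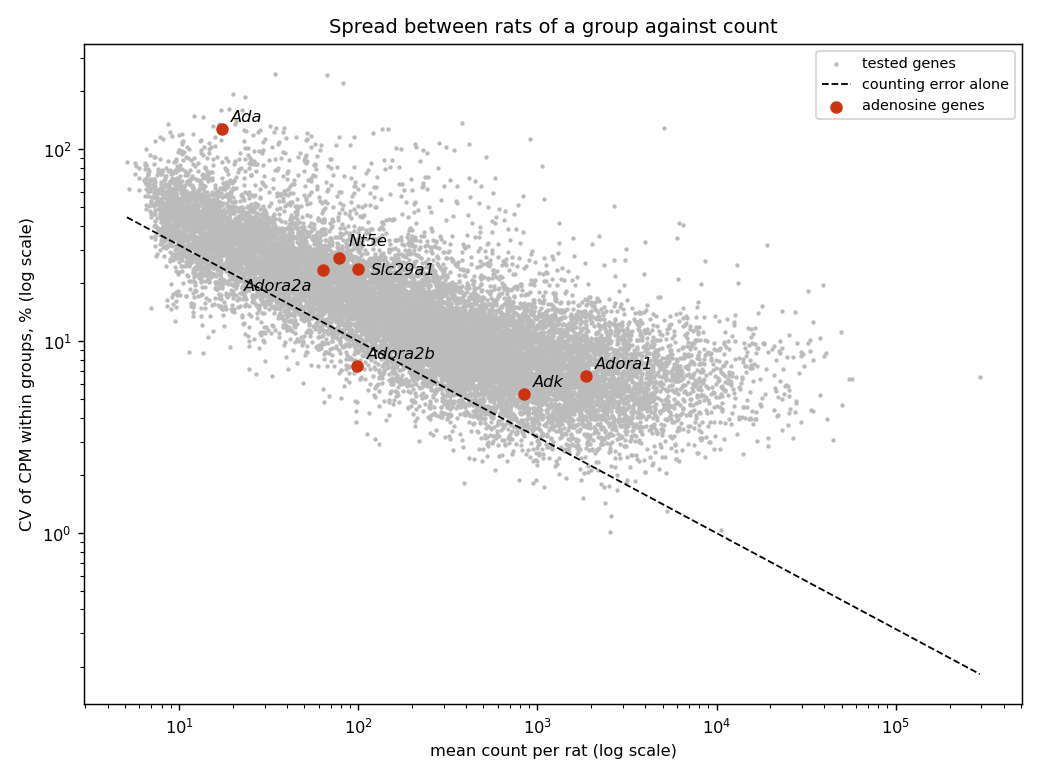
Coefficient of variation of CPM within groups, in percent (vertical axis, log scale), against the mean count per rat (horizontal axis, log scale) for the tested genes in grey and the 7 genes in red; the dashed line is counting error alone. Ada lies at the upper edge of the cloud at 128%, and Adora2b lies below the line at 7.45%.

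Whether an interval excludes a change of 1.5-fold depends on the estimate as well as on this spread. The 95% interval excluded a change of 1.5-fold for Adora1 and Adk between MS and Control rats, for Adora1, Adk and Adora2b between EA and MS rats, and for Adora1, Adk and Slc29a1 between EA and Control rats. These are 2, 3 and 3 of the 7 genes, whereas 60.3%, 59.4% and 55.6% of all tested genes had such intervals. The signs were mixed, with 4 of the 7 genes above 0 and 3 below in each comparison. Their median log2 fold changes were 0.13, 0.010 and 0.062, and those of all tested genes -0.0014, 0.00059 and 0.0055, in MS against Control, EA against MS and EA against Control.

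Of the 21 pairs among the 7 genes, the highest Pearson correlation of log2 CPM over the 9 rats was 0.62, between Adk and Ada, and the lowest -0.51, between Adora2b and Adk. The rats share tissue and processing and include all 3 groups, so these are descriptions without a test. For each gene, the 3 most similar of the other 16836 tested genes were picked by the same measure. Adora1 was most like RGD1560108, the pacemaker channel gene Hcn2 and the neuronal transcription factor gene Scrt1 (r = 0.95 for each). Ada was most like Slain2, the extracellular matrix gene Ecm1 and Lhfp (r = 0.96, 0.95 and 0.94). Each of these 3 was highest in C16, where Ecm1 had 9.14 CPM against 4.15 to 7.57 CPM in the other rats. As Ada itself was highest in C16, picking genes by likeness to it largely set this outcome.

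For the other genes the most similar patterns were those of RGD1311648, LOC102555054 and LOC102554398 for Adora2a (r = 0.91 for each) and of Pmel, Mycl and Rpl6-ps1 for Adora2b (r = 0.94, 0.94 and 0.93). Nt5e was closest to Epb4.1, LOC102553429 and Tnnc2 (r = 0.96, 0.94 and 0.93), and Slc29a1 to Irak2, Ctrc and Zak (r = 0.95, 0.94 and 0.93). Adk was closest to LOC502894, Capn7 and Kcmf1 (r = 0.94, 0.92 and 0.91). The number of genes with r over 0.9 was 34 for Adora1, 23 for Ada and 4 to 9 for the others.

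Around these 7 genes, 65 further genes of the pathway were listed in 5 groups, and 55 of them were tested. In each comparison 0 of the 55 were called. At an unadjusted p under 0.05 there were 5 between MS and Control rats (4 higher and 1 lower in MS), 5 between EA and MS rats (all lower in EA) and 15 between EA and Control rats (5 higher and 10 lower in EA). These are 9.09%, 9.09% and 27.3% of the 55, beside the 10.6%, 12.4% and 22.5% of all tested genes. The fourth adenosine receptor, Adora3, had 1 read in C3 and 0 in the other rats. Gnas, the G protein subunit that stimulates adenylyl cyclase in most cells, was listed with 0 to 3 reads per rat and was not tested. With the counting program and its strand setting not stated, the counts of Gnas do not show whether its transcript was absent.

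**Figure D5:**
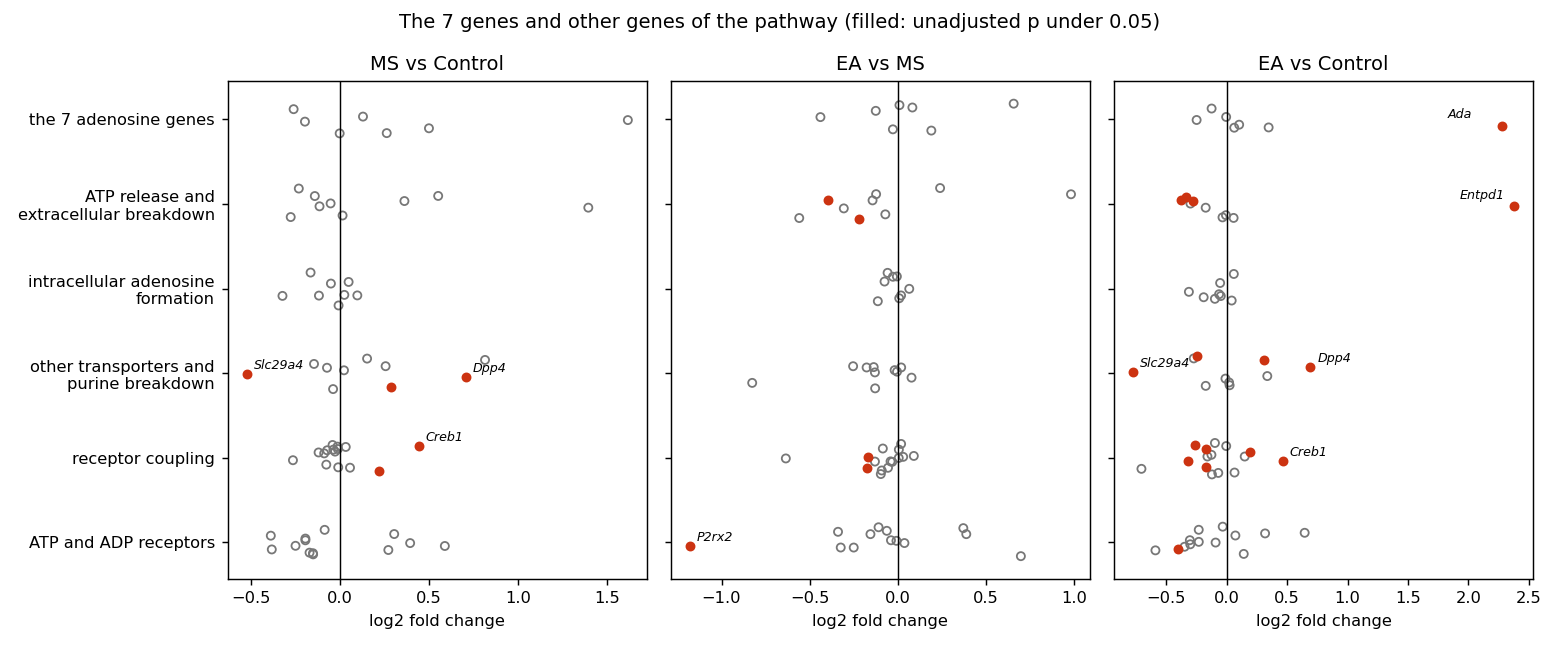
The log2 fold change (horizontal axes) in the 3 comparisons for the 7 genes and for the 55 tested genes of the pathway lists, 1 row per list; filled points have an unadjusted p under 0.05, and those beyond 0.4 in size are named. Ada and Entpd1 stand at 2.28 and 2.38 in EA against Control, and most other points lie near 0.

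Among the enzymes and channels that release ATP and break it down outside cells, 9 of 11 listed genes were tested, with 0, 2 and 4 at an unadjusted p under 0.05 in the 3 comparisons. Panx1, a channel that releases ATP, had 41.6 ± 5.38 CPM (SD, n = 3) in Control, 42.1 ± 4.92 CPM (SD, n = 3) in MS and 32.0 ± 0.705 CPM (SD, n = 3) in the EA group. All 3 EA rats lay below the other 6. The log2 fold change of Panx1 was -0.39 for EA against MS (edgeR adjusted p = 0.236) and -0.38 for EA against Control (edgeR adjusted p = 0.0641). Entpd3, an ectonucleotidase of neurons, stood at -0.22 and -0.33 in these comparisons (edgeR adjusted p = 0.389 and 0.0666), and Panx2 at -0.28 between EA and Control rats (edgeR adjusted p = 0.0871). Entpd1, which hydrolyses ATP and ADP on microglia and vessels, had 41, 38 and 2 reads in the EA rats C3, C10 and C16, 9, 9 and 29 in B3, B4 and B6 of the MS group and 2 to 11 in the Control rats. Its log2 fold change of 2.38 between EA and Control rats (edgeR adjusted p = 0.112) thus came with high values in C3 and C10, and C16, the highest rat for Ada, was among the lowest for Entpd1.

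The 8 tested of 10 genes that form adenosine inside cells, the cytosolic nucleotidases and the hydrolases of S-adenosylhomocysteine, included 0 with an unadjusted p under 0.05 in any comparison by edgeR. Their median log2 fold changes were -0.028, -0.016 and -0.059.

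Of 13 other transporters and enzymes of purine breakdown 10 were tested, with 3, 0 and 4 at an unadjusted p under 0.05. Slc29a4, a transporter that carries monoamines and adenosine, had 8.70 ± 2.22 CPM (SD, n = 3) in Control, 6.06 ± 1.26 CPM (SD, n = 3) in MS and 5.10 ± 1.40 CPM (SD, n = 3) in the EA group. Its log2 fold change relative to Control rats was -0.52 in MS (edgeR adjusted p = 0.462) and -0.78 in EA rats (edgeR adjusted p = 0.0816). Dpp4, a peptidase of the cell surface, had 6.80 ± 0.376 CPM (SD, n = 3) in Control, 11.1 ± 2.78 CPM (SD, n = 3) in MS rats and 7.63, 13.4 and 11.9 CPM in the EA rats C3, C10 and C16, and each separated rat lay above each Control rat. Its log2 fold changes relative to Control rats were 0.71 and 0.69 (edgeR adjusted p = 0.244 and 0.0845). Adal, a relative of Ada, stood at 0.29 and 0.31 (edgeR adjusted p = 0.449 and 0.169), and the AMP deaminase Ampd2 at -0.25 in EA relative to Control rats (edgeR adjusted p = 0.105).

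In the group of G proteins, adenylyl cyclases and their effectors 15 of 17 genes were tested, with 2, 2 and 6 at an unadjusted p under 0.05. Creb1, the transcription factor that cyclic AMP signalling activates, was the only pathway gene with an adjusted p under 0.05 in any comparison. It had 66.0 ± 3.08 CPM (SD, n = 3) in Control, 89.7 ± 4.43 CPM (SD, n = 3) in MS and 90.9 ± 5.13 CPM (SD, n = 3) in the EA group. The log2 fold change of Creb1 was 0.46 for EA against Control (edgeR adjusted p = 0.00795) and 0.44 for MS against Control (edgeR adjusted p = 0.0578), both under 1.5-fold. Prkacb, a catalytic subunit of the kinase that phosphorylates it, stood at 0.22 and 0.19 in MS and EA relative to Control rats (edgeR adjusted p = 0.364 and 0.204). The inhibitory G protein subunit Gnai2 and the cyclase Adcy1 stood at -0.17 and -0.17 in EA relative to MS rats (edgeR adjusted p = 0.399 and 0.367). Against Control, the EA values of Gnai2, Adcy8 and Prkaca stood at -0.26, -0.32 and -0.17 (edgeR adjusted p = 0.0750, 0.165 and 0.122).

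Among the receptors of ATP and ADP 13 of 14 were tested, with 0, 1 and 1 at an unadjusted p under 0.05. P2rx2, a cation channel opened by ATP, had 1.11 ± 0.343 CPM (SD, n = 3) in Control, 1.67 ± 0.145 CPM (SD, n = 3) in MS and 0.724 ± 0.310 CPM (SD, n = 3) in the EA group, with a log2 fold change of -1.18 for EA against MS (edgeR adjusted p = 0.280). P2rx4, another channel of that family, stood at -0.40 in EA relative to Control rats (edgeR adjusted p = 0.118).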

How the data were processed

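The authors filtered reads with FastQC, aligned them by HISAT2 2.0.4 to Rnor_6.0 per the submitters' processing notes, and deposited raw counts per gene, 1 column per rat. The counting program and its strand setting are not given in the sources used here. All 9 columns were matched to rats by name. Pairs of libraries within a group had a chi-square per degree of freedom of 6.11 to 13.4, so none of these pairs was a repeat deposit. Pairs from different groups were not compared in this way.

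Counts were analysed with edgeR 4.0.16 in R 4.3.3: filterByExpr (minimum count 10), TMM, and a quasi-likelihood fit with a mean per group over 9 rats. Standard errors were derived from the F statistic (absolute log2 fold change over root F), and intervals use the t quantile at the total degrees of freedom. EBSeq, the model of the study, was not installed. Exact permutation of 3 rats against 3 gives no p under 0.1 and was not used. Log2 CPM for correlations used a prior count of 2. DESeq2 1.42.0 and other settings were alternatives. The procedure was tested on simulated data. Plots used matplotlib 3.10.9.

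The genes, the pathway and marker lists and the rule for named genes were chosen with earlier results of these data known. The rule takes the 7 genes, up to 3 pathway genes per list, comparison and direction by p among those with an unadjusted p under 0.05, every marker with such a p where a gene of the 7 has one, and the 3 most similar genes. Some markers of the lists are not reported here. Tbr1, Neurod6, Gfap, Aqp4, Lum, Dcn, Drd2, Gpr6, Pde10a, Ppp1r1b, Adora3 and Gnas were added after their values were seen. RefSeq's table, of assembly GRCr8, was used only for neighbours.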

Additional observations from a re-analysis of the deposited data

How the results depend on the processing

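No paired analysis was possible because the groups hold different rats and nothing in the labels pairs them. Over 7 alternatives and the omission of each rat, the number of the 7 genes called stayed at 0, except for 1 (Ada) between EA and Control rats when the filter was lowered to 1 count. The number of all genes called moved more. Between MS and Control rats it was 4, and 70 with DESeq2, 207 with at least 1 count, 11 with only the 6 rats compared and 2 to 22 with a rat left out (2 without A1 or A2, 22 without B3). Between EA and MS rats it was 3, and 37 with DESeq2, 0 with at least 10 counts in every rat, 72 with at least 1 count, 1 with only the 6 rats, 1 with bias-adjusted deviances and 1 to 4 with a rat left out (1 without C16). Between EA and Control rats it was 230, and 469 with at least 1 count and 71 to 261 with a rat left out (71 without A1, 121 without C10). The cause of these shifts was not tested.

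Values near 0 changed sign, as did that of Ada in EA against MS (0.66). The log2 fold change of Adora1 in MS against Control was 0.0023 with at least 10 counts in every rat, 0.00062 with the 6 rats alone and -0.044 to 0.032 with a rat left out. That of Slc29a1 in EA against Control was 0.026 with total counts, 0.0099 with at least 10 counts, 0.0047 with bias-adjusted deviances and -0.26 to 0.16 with a rat left out. In EA against MS, Adk stood at 0.015 with total counts, and with a rat left out the ranges were -0.074 to 0.011 for Adk, -0.047 to 0.088 for Adora2b, -0.076 to 0.31 for Nt5e, -0.064 to 0.37 for Slc29a1 and -1.33 to 1.19 for Ada, with -1.32 for Ada at 1 count and without C16. Adora2a in EA against Control ranged from -0.058 to 0.20. The filter of 10 counts in every rat removed Ada, as did the fit of the 6 EA and Control rats, so neither gave it a value. Ada had 4 to 62 reads per rat, and its spread pooled over groups was 128% against 24.0% from counting. Within the Control group alone it was 17.3%, in MS 42.6% and in the EA group 131%.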
